A study of Homo sapiens with 14 samples.

Results

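Interferon-stimulated genes are the genes that cells switch on when interferon binds its receptor. The list described here held 43 such genes, chosen by name, and 41 of them were measured among the 18372 genes tested. A member was measured where a probe set was annotated to that symbol alone. For TAP1, with 4 such probe sets, 2 of them of identical values, the one with the highest mean was used. GBP1 was left out because its probe set is also annotated to GBP3 and GBP1P1, and STAT2 was not analysed here. The data were expression arrays of 7 human prostate cancer cell lines, with 2 arrays per line and 14 in all, and each array of a line came from a different passage in culture.

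Of the 7 lines, 5 had PC3 background. PC3-N is a PC3 subline that the labels call non bone metastatic. PC3-N(PDGFRα) is PC3-N overexpressing the platelet-derived growth factor receptor alpha and is labelled bone metastatic. PC3-ML is a bone-metastatic PC3 subline, and PC3-ML (Clone 1) and PC3-ML (Clone 3), here Clone 1 and Clone 3, are bone-metastatic progeny of single PC3-ML cells. The other lines were DU-145 and DU-145 (PDGFRα), which overexpresses the same receptor, and both are labelled non bone metastatic. All lines grew under the same conditions, in DMEM that contained serum and gentamicin, and the labels name no other agent. They name no interferon treatment and no line that carries an empty vector, so an overexpressing line differs from its parent by the receptor together with the steps that made it. The lines are not independent of each other, since each clone is the progeny of 1 cell and each overexpressing line was made from its parent.

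In the usual course of the pathway, a cell senses foreign or misplaced nucleic acid with RIG-I-like receptors, cGAS or Toll-like receptors and secretes type I or type III interferon. The interferon receptor activates the kinases JAK1 and TYK2, and a transcription factor complex that contains IRF9 then binds an interferon-stimulated response element (ISRE) in the promoters of its target genes. The products degrade or mark viral RNA, block translation or tag proteins with ISG15. Many of them, among them the sensor IFIH1 and the factors IRF7 and IRF9, act back on the pathway itself. Tumour cell lines can keep some of these genes on without added interferon.

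Promoter windows of 35 of the 43 listed genes were found in RefSeq (GRCh38.p14), and the 250 bases before each gene start were searched on both strands. The core of the ISRE, GAAANNGAAA, lay in the windows of 22 of these 35 genes, or 62.9%, against 3.71% of 27305 genes with a window, counting a gene once whatever its number of starts. The core of the other interferon element, the GAS (TTCNNNGAA), lay in 11 of the 35, or 31.4%, against 8.09% of all genes. A match is a match of letters and not a bound site. DHX58, OAS2, IRF7, IFIT2, MX2, USP18, TRIM22 and OASL had no window in the table. The 200 bases before the gene start are printed for 8 genes whose values the results below turn on, on the strand of the gene, with every base of an ISRE match in capitals (TTTCNNTTTC is the same core read on the other strand).

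IFIT1, IFIT3, IFI44, SAMD9 and MX1 are shown because they differed most between the passages of DU-145 (PDGFRα). The windows are chr10:89392423-89392622 for IFIT1, chr10:89327797-89327996 for IFIT3, chr1:78649589-78649788 for IFI44 and chr21:41431850-41432049 for MX1, all on the plus strand, and chr7:93117980-93118179 on the minus strand for SAMD9. IFIT1 and IFIT3 held 2 matches each and the others 1 each. The table has 2 windows for IFIT3, 2 for IFI44 and 3 for MX1, of which 1 is shown for each.
IFIT1: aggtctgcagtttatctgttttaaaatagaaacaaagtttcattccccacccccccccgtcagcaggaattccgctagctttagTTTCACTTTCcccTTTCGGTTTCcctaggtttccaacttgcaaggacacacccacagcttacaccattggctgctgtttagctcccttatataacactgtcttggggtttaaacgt
IFIT3: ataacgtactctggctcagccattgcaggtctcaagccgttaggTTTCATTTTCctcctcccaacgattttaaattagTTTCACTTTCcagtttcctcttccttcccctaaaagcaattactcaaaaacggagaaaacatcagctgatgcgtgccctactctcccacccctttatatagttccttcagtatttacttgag
IFI44: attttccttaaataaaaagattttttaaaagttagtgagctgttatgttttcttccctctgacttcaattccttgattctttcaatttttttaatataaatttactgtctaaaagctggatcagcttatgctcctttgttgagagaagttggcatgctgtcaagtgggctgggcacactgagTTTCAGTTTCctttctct
SAMD9: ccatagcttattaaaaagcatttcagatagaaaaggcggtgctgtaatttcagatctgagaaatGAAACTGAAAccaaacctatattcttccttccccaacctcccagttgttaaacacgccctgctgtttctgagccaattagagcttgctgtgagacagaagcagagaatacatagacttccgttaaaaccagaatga
MX1: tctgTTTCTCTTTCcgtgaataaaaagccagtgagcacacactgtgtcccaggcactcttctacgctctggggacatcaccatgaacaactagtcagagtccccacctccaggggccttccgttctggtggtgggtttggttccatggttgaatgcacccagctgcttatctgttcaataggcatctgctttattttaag

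HERC5 and IFI6 are shown because they were lower in PC3 lines than in DU-145 lines, and IFI44L because it stood alone in Clone 3. The windows are chr4:88456919-88457118 for HERC5 and chr1:78620248-78620447 for IFI44L on the plus strand and chr1:27672193-27672392 on the minus strand for IFI6. HERC5 and IFI6 held 3 matches each, those of HERC5 overlapping in part, and IFI44L held 2.
HERC5: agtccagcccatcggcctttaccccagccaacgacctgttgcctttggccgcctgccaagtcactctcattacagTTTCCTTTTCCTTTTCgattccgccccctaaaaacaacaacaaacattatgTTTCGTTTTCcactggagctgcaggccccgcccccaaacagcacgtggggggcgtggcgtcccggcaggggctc
IFI6: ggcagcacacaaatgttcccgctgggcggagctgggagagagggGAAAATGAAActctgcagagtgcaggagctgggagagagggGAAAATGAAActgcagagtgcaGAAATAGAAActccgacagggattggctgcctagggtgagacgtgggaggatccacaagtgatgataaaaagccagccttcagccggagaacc
IFI44L: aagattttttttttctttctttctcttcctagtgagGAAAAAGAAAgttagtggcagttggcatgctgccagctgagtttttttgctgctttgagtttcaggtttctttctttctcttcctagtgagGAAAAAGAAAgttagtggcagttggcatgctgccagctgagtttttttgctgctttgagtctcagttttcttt

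Values are intensities as the authors deposited them, on a linear scale from 18.5 to 8654, and differences are in log2 units, where 1 unit is 2-fold. The median over all genes and arrays was 36.3, and the array medians of the genes tested lay between 35.7 and 37.3. PDGFRA, the gene of the introduced receptor, read 817 and 850 in PC3-N(PDGFRα) against 103 and 109 in PC3-N, and 130 and 92.2 in DU-145 (PDGFRα) against 28.2 and 25.5 in DU-145, so both overexpressing lines stood above their parents on every array. Epithelial markers (KRT8, KRT18, KRT19, EPCAM and CDH1) summed to between 1105 and 3139 per array, which carcinoma cells express. Of the prostate luminal markers, KLK3, KLK2 and HOXB13 were measured and summed to between 84.0 and 315.8. KLK3 and KLK2 read 24.2 to 33.9 on all arrays, and HOXB13 29.0 to 259.9. A sum is led by its brightest gene, does not show that each marker was expressed and cannot be compared between lists. Markers of other cells summed to between 193.5 and 270.6 for 6 leukocyte markers, 68.9 and 101.3 for 3 plasmacytoid dendritic cell markers, 170.5 and 188.4 for 6 fibroblast markers and 66.3 and 149.8 for 3 endothelial markers. In bulk RNA such as this, more cells expressing a gene and more RNA per cell cannot be told apart. The yardstick of every p below is how far 2 passages of a line lay apart, except in the comparison by metastatic label, and says nothing about independently derived lines.

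One array stood apart in these genes. The second passage of DU-145 (PDGFRα) held the highest of the 14 values for 24 of the 41 members, against 14.3% of all genes. The mean log2 intensity of the members was 5.78 on that array and 5.31 on the line's other array, and between 5.17 and 5.43 on the 12 arrays of the other lines. Counts of called members and median differences that rest on this line are therefore given with and without that array. Other values that rest on it, such as the spans of single members, the related lists and correlations, are given with it.

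The members fell into a group of low values and a group that could be followed. All line means of 13 members lay under 36.3, and their arrays read between 20.1 and 38.5. They were the viral restriction factors RSAD2 (viperin), CMPK2, BST2 (tetherin), MX2, IFITM1, TRIM21, TRIM22 and SAMD9L, the sensor regulator DHX58, the antiviral OASL, the apoptosis factor XAF1, the transcription factor IRF1 and EPSTI1. Of all genes, 43.0% were that low, as were 31.7% of the members. A low reading can be low expression or a weakly binding probe, which cannot be told apart here. The other 28 members had at least 1 line mean above 36.3.

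Line means of the members spanned a median of 0.56 log2 units, against 0.31 for all genes, with all arrays in. For the members this median was 0.47 without the second array of DU-145 (PDGFRα). With all arrays the ranking by span was as follows. The widest was IFIT1, whose product binds viral RNA that lacks the host's cap methylation. It read 55.0 and 43.9 in PC3-N, 84.6 and 61.0 in PC3-N(PDGFRα), 41.9 and 37.1 in PC3-ML, 32.4 and 37.2 for Clone 1, 34.9 and 27.6 for Clone 3, 144 and 84.1 in DU-145, and 83.0 and 315 in its derivative DU-145 (PDGFRα). DU-145 (PDGFRα) and Clone 3 thus lay at the ends, 2.38 log2 units apart (161.7 against 31.0 as geometric means), and the 2 arrays of the top line were themselves 1.93 log2 units apart. After IFIT1 came its partner IFIT3 with a span of 1.74, IFI44, a gene of little understood function, with 1.70, its relative IFI44L with 1.52, the RNA sensor IFIH1 (MDA5) with 1.47, the ISG15 ligase HERC5 with 1.46 and the antiviral SAMD9 with 1.06. Below 1 log2 unit followed the GTPase MX1 with 0.98, the mitochondrial IFI6 with 0.93, the ubiquitin-like modifier ISG15 and the HERC5 relative HERC6 with 0.82 each, and the ubiquitin ligase DTX3L with 0.73. Among the 28 members with higher readings the narrowest were the RNA-activated synthetase OAS3 with 0.211, the transcription factor IRF9 with 0.222, the interferon regulator IRF7 with 0.307, IFI35 with 0.322 and IFI27 with 0.426.

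**Figure D1:**
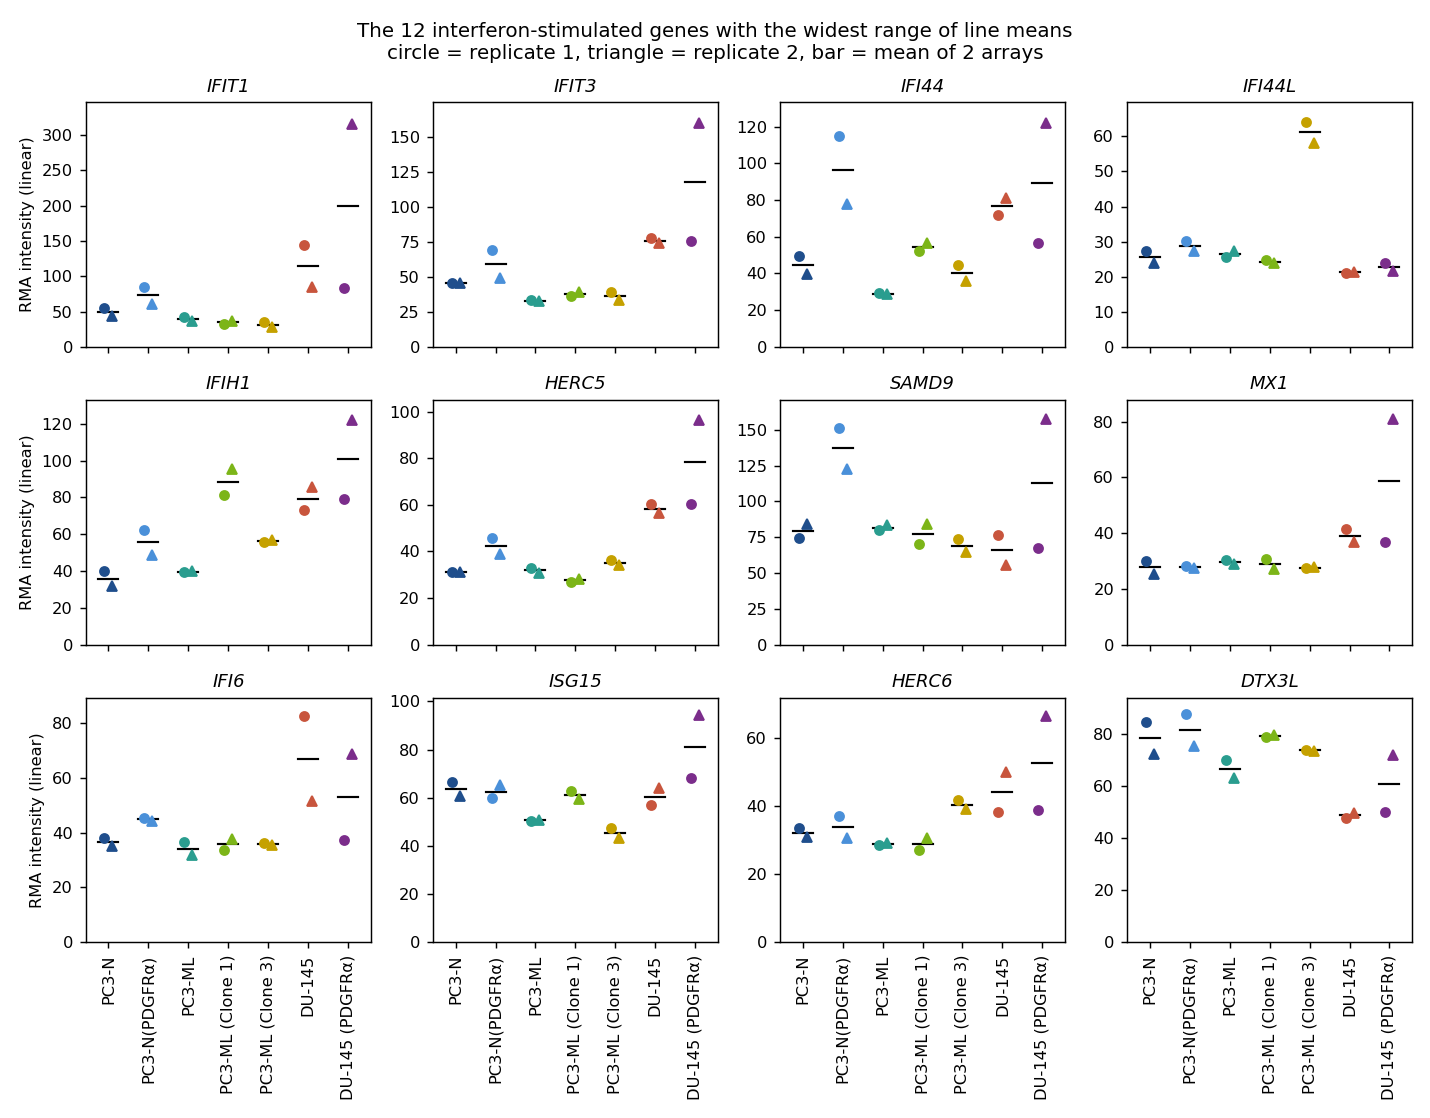
Intensity (linear axis from 0) of the 12 members with the widest span of line means, by line; circles are replicate 1, triangles replicate 2 and bars the mean of the 2 arrays. The triangle of DU-145 (PDGFRα) is the highest point for IFIT1 (315), IFIT3 (160) and MX1 (80.8), whereas IFI44L is high in Clone 3 alone (64.2 and 58.0).

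A test for any difference among the 7 lines (limma's moderated F, Benjamini-Hochberg adjusted p under 0.05 over all genes) called 15 of the 41 members, or 36.6%, where 38% of all genes were called. In this fit of all 14 arrays the share of members that differed between lines was thus near that of genes in general. It was above that of all genes when 1 or the other array of DU-145 (PDGFRα) was left out. The test takes its spread from the passages of all lines together. Leaving out either array also takes the gap between these 2 passages out of that spread, for every comparison. The higher shares in those fits therefore do not show that more members differ between lines. With a trended prior 22 of the 41 members were called, where 7414 of 18372 genes were. With genes of low intensity left out 18 of 27 members (66.7%) were called, where 64.9% of all such genes were. The 15 were IFI44L (adjusted p = 7.92e-06), HERC5, IFIH1, SAMD9L, IFIT3, EIF2AK2, PLSCR1, IFI44, IFI27, ISG15, OASL, IFIT1, DTX3L, ISG20 and OAS2. SAMD9L and OASL belonged to the low group. Without the first array of DU-145 (PDGFRα) 24 members were called, where 36.2% of all genes were, and without the second 20, where 35.1% were. OAS2 lost its call in 11 of the 14 fits that left out 1 array, DTX3L and ISG20 in 2 each and OASL in 1.

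Expression of the members by line followed no single order. The highest line mean was found in DU-145 (PDGFRα) for 21 members, in PC3-N(PDGFRα) for 9, in DU-145 for 5, for 2 each in PC3-N and Clone 3, and for 1 each in Clone 1 and PC3-ML. Without the second array of DU-145 (PDGFRα) it was found there for 6 members, and for 11 in DU-145, 10 in PC3-N(PDGFRα), 5 in Clone 1, 4 in PC3-N, 3 in Clone 3 and 2 in PC3-ML. The mean log2 intensity over the 41 members was 5.54 in DU-145 (PDGFRα), 5.38 in PC3-N(PDGFRα), 5.37 in DU-145, 5.24 in both PC3-N and Clone 1, 5.23 for Clone 3 and 5.17 for PC3-ML. The 6 lower means spanned less than the gap between the 2 arrays of the top line, at 5.31 and 5.78. Over the 14 arrays the median Pearson correlation among the 820 pairs of members was 0.27, with the arrays of related lines sharing their origin.

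Several members are neighbours on a chromosome, and neighbours did not always share a pattern. IFIT1, IFIT2, IFIT3 and IFIT5 lie together on chromosome 10, OAS1, OAS2 and OAS3 on chromosome 12, MX1 and MX2 on chromosome 21, HERC5 and HERC6 on chromosome 4, SAMD9 and SAMD9L on chromosome 7, PARP9 and DTX3L on chromosome 3, and IFI44 and IFI44L on chromosome 1. IFI44L read 64.2 and 58.0 in Clone 3 and between 21.1 and 30.1 on all 12 other arrays. IFI44, the next gene, read 44.6 and 35.9 in Clone 3, inside its range of 28.9 to 122 elsewhere. Copies as similar as these can share probes in part, and how far they do was not tested.

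The clearest joint pattern separated the 2 passages of DU-145 (PDGFRα). The IFIT genes are cytoplasmic proteins that bind foreign RNA and stop its translation. IFIT1 read 83.0 in the first passage and 315 in the second, a 3.80-fold difference. IFIT2 read 52.9 and 117, IFIT3 75.7 and 160, and IFIT5 46.2 and 77.6. All 4 were higher in the second passage, by a median of 1.11 log2 units.

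Restriction factors were higher there too. SAMD9, which restricts poxviruses, read 67.4 and 158 (2.34-fold), and MX1, which traps viral nucleoproteins, read 36.7 and 80.8 (2.20-fold). All 12 measured restriction factors were higher in the second passage, at a median of 0.31. IFI44 read 56.4 and 122, and SP110, a nuclear body protein, 60.3 and 112. IFI6, a mitochondrial protein linked to survival, read 37.2 and 68.8. In each of these genes the second passage also exceeded both arrays of the parent DU-145, except for IFI6, which read 82.5 and 51.4 there.

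The ISG15 system was higher likewise. ISG15 read 68.1 and 94.2, its ligase HERC5 60.2 and 96.5, HERC6 38.7 and 66.5, and its protease USP18, which also restrains the receptor, 43.3 and 53.0. The sensors IFIH1 (79.3 and 122), EIF2AK2 (the kinase PKR, 350 and 469) and DHX58 (27.4 and 27.7) were all higher in the second passage, at a median of 0.42. OAS1, OAS2 and OAS3, which make the activator of RNase L, and their relative OASL were all higher, at a median of 0.33. PARP9 and DTX3L, which form a complex, were higher by a median of 0.56. IRF1, IRF7 and IRF9 were higher by a median of 0.14 and the genes IFI6, IFI27 and XAF1 by a median of 0.07.

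In all, 39 of the 41 members were higher in the second passage of DU-145 (PDGFRα) than in the first, against 52.1% of all genes, and the median difference was 0.33 log2 units against 0.01. The exceptions were the peptide transporter TAP1 (0.14 lower) and IFI44L (0.15 lower). Of the members, 13 (31.7%) were over 1.5-fold higher, where 0.321% of all genes were, and 0 were over 1.5-fold lower, where 0.528% of all genes were. The 6 largest of the 18372 differences were those of IFIT1, SAMD9, IFIT2, MX1, IFI44 and IFIT3, and 8 of the 20 largest belonged to members. With 1 array per passage there is no test of this difference, and it has no replicate check.

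**Figure D2:**
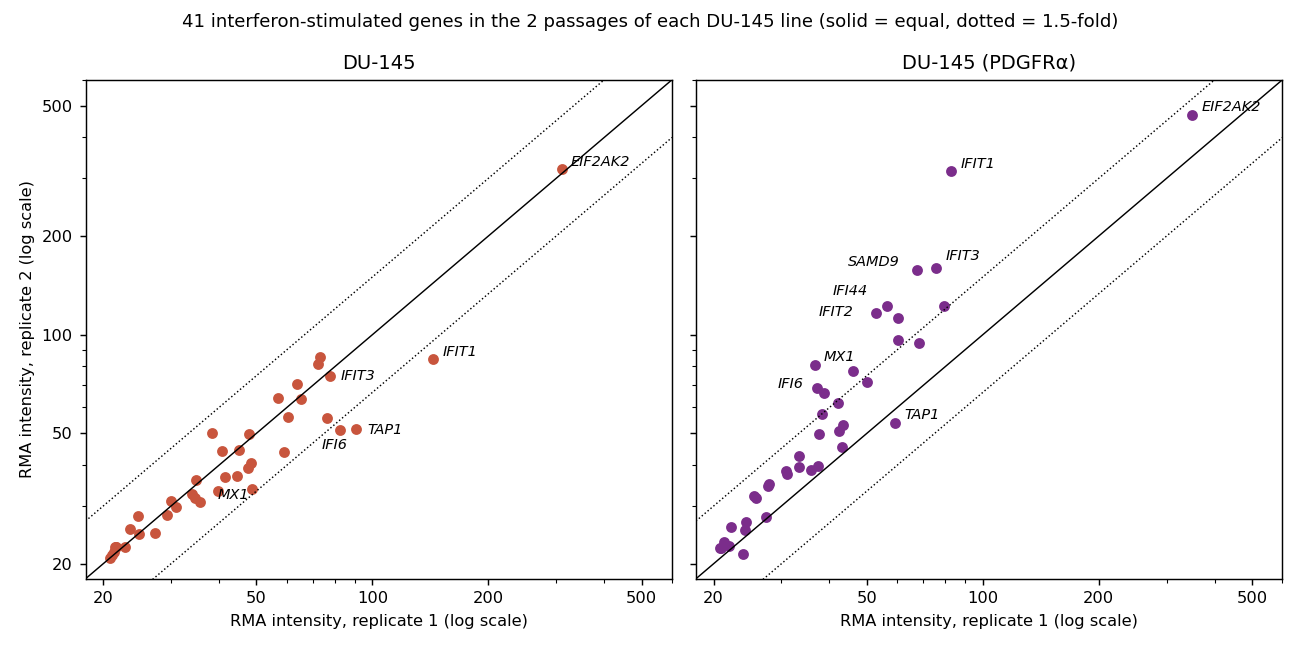
Intensity of the 41 members in replicate 2 (vertical) against replicate 1 (horizontal), both on log axes, for DU-145 (left) and DU-145 (PDGFRα) (right); the solid line marks equal values and the dotted lines 1.5-fold. In DU-145 the points lie around the solid line, and in DU-145 (PDGFRα) 39 of 41 lie above it, with IFIT1 farthest (83.0 and 315).

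In the other 6 lines the median difference between passages was smaller. Median differences of the members lay between -0.09 and 0.05, and 0 members were over 1.5-fold higher in the second passage of any of them, where 0.0272% to 0.37% of all genes were. In PC3-N, OAS1 was over 1.5-fold lower in the second passage (84.6 and 46.8), as were 0.8% of all genes. In DU-145, TAP1 (90.9 and 51.6), IFIT1 (144 and 84.1) and IFI6 (82.5 and 51.4) were, as were 1.5% of all genes. In each of the other 4 lines 0 members were, where 0.25% of all genes in PC3-N(PDGFRα), 0.0708% of those in PC3-ML, 0.0599% of those in Clone 1 and 0.229% of those in Clone 3 were. The passages of DU-145 itself therefore differed in IFIT1 too, in the opposite direction and by less. In PC3-N(PDGFRα) all 4 IFIT genes were lower in the second passage, by a median of 0.47 log2 units, and IFI44 was at -0.56, where the 1st percentile of all genes was -0.43. Of the 28 members with higher readings, 6 were higher in the second passage in each of PC3-N and PC3-N(PDGFRα), where 50.8% and 50.9% of all genes were. The median differences of these 28 were -0.13 and -0.11.

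**Figure D3:**
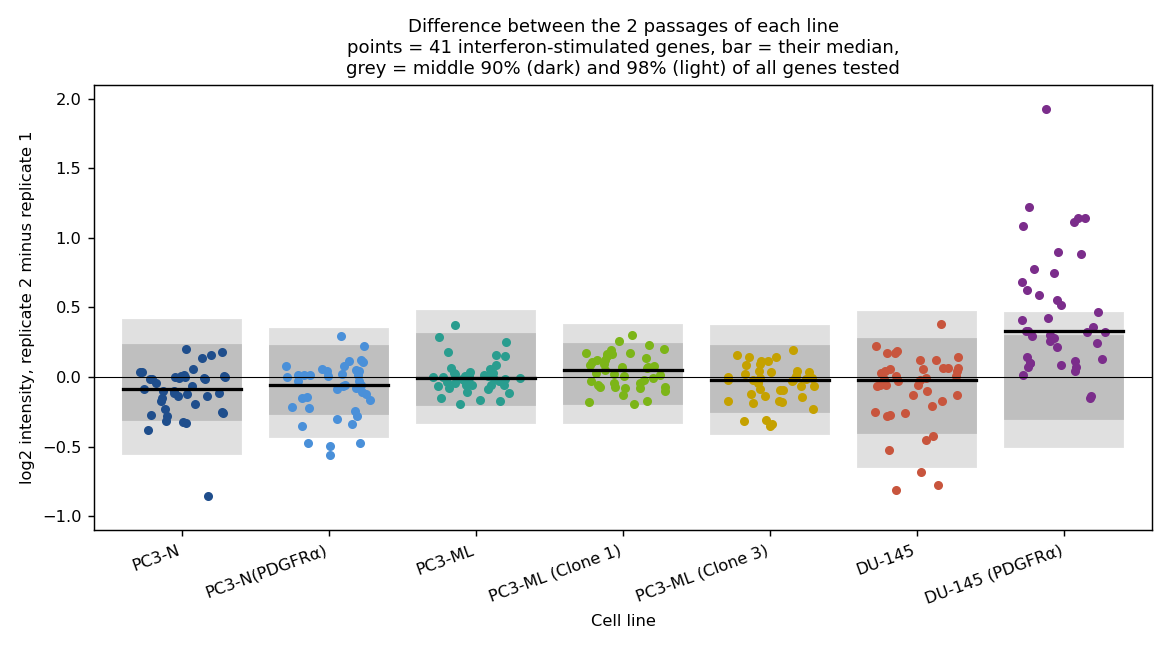
Difference in log2 intensity between replicate 2 and replicate 1 for each of the 41 members, by line; black bars are medians of the members, and the dark and light grey boxes span the 5th to 95th and the 1st to 99th percentiles of all 18372 genes. The members of DU-145 (PDGFRα) are shifted upward (median 0.33), and those of the other lines centre between -0.09 and 0.05.

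Other genes of the pathway, from lists of related genes, were followed across the same 2 arrays. Of 30 further interferon-induced genes, 23 were higher in the second passage, at a median of 0.12. PARP14, a relative of PARP9, read 71.7 and 135, and the RNA sensor RIGI (RIG-I) read 99.9 and 166. Of 9 genes of class I antigen presentation 7 were higher (median 0.14), of 9 brakes on signalling 6 (median 0.16), of 15 sensors and adaptors 9 (median 0.04), and of 9 receptor and JAK-STAT genes 4 (median -0.05). Of 11 interferon genes 9 were higher, at a median of 0.02 over the 11. IFNB1 read 20.8 and 20.9 on these arrays and between 19.9 and 22.2 on all 14. IFNL2 read 33.3 and 48.0 and IFNL3, a close copy of it that can share its probes, 80.2 and 94.2, and the second passage held the highest of the 14 values of both.

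Other measures of the same 2 arrays stand beside this difference. PDGFRA read 130 in the first passage and 92.2 in the second. In the second passage 5 of 6 leukocyte markers were higher by a median of 0.08, 2 of 3 plasmacytoid dendritic cell markers by 0.04 and 3 of 3 endothelial markers by 0.14, and 3 of 5 epithelial markers were higher with a median of 0.06. Of the fibroblast markers 2 of 6 were higher, with a median of -0.04. The part of the receptor reading and of these markers in the result was not tested. In the members with an ISRE core the median difference was 0.47 (21 measured) and in those without 0.29 (12 measured). For the GAS core it was 0.13 with (11) and 0.49 without (22).

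PC3 lines were compared with DU-145 lines, which come from the tumour of another patient. In the mean of the 5 PC3 lines, 16 members fell below the mean of the 2 DU-145 lines and 4 were above it by limma with adjusted p under 0.05. Over all genes 16.5% were called lower and 22.3% higher, or 38.8% in all. The median difference of the members was -0.08 log2 units, against -0.01 for all genes. With genes of low intensity left out, 17 of 27 members (63.0%) were called, where 59.9% of all such genes were. The members called lower included IFIT1, IFIT3, MX1, IFI44, IFI6 and the whole ISG15 group.

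IFIT3 bridges IFIT1 and IFIT2. Its lowest, median and highest values were 32.6, 39.3 and 69.2 over the 10 PC3 arrays and 74.6, 76.6 and 160 over the 4 DU-145 arrays, so the groups did not overlap, and it was 2.22-fold lower in PC3 lines (log2 difference -1.15, SE 0.17, adjusted p = 0.000288). HERC5 attaches ISG15 to new proteins. It read 27.1, 32.2 and 45.9 over the PC3 arrays and 56.3, 60.3 and 96.5 over the DU-145 arrays (-1.0, SE 0.10, adjusted p = 2.63e-05), again without overlap. MX1 read 25.4, 28.0 and 30.6 against 36.7, 39.1 and 80.8 (-0.70, SE 0.16, adjusted p = 0.00572). IFIT1 had the largest difference, at -1.63 (SE 0.29, 3.09-fold, adjusted p = 0.00134), although its PC3-N(PDGFRα) array of 84.6 passed the lowest DU-145 array of 83.0.

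Of the other members called lower, those of the ISG15 group were HERC6 (-0.54), USP18 (-0.40) and ISG15 (-0.31). The 3 sensors were lower as well, with IFIH1 at -0.76, EIF2AK2 at -0.23 and DHX58 at -0.10. The rest were IFI44 (-0.72), IFI6 (-0.62), the scramblase PLSCR1 (-0.40), OASL (-0.33), IFI27 (-0.33) and MX2 (-0.23). In 6 members every DU-145 array exceeded every PC3 array, namely IFIT3, OASL, HERC5, MX1, PLSCR1 and IFI27, where 7.41% of all genes did so.

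The 4 members higher in PC3 lines were IFI44L (0.50), DTX3L (0.48), the exonuclease ISG20 (0.42) and PARP9 (0.36). IFI44L alone had every DU-145 array below every PC3 array, where 10.1% of all genes did, with lowest, median and highest values of 23.9, 27.2 and 64.2 in PC3 lines and 21.1, 21.4 and 23.8 in DU-145 lines. Its difference thus rests on Clone 3 in size, while the other PC3 lines lay just above the DU-145 lines. DTX3L and PARP9 were called higher together. None of IRF1, IRF7 and IRF9 was called, and of the OAS family OASL alone was.

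**Figure D4:**
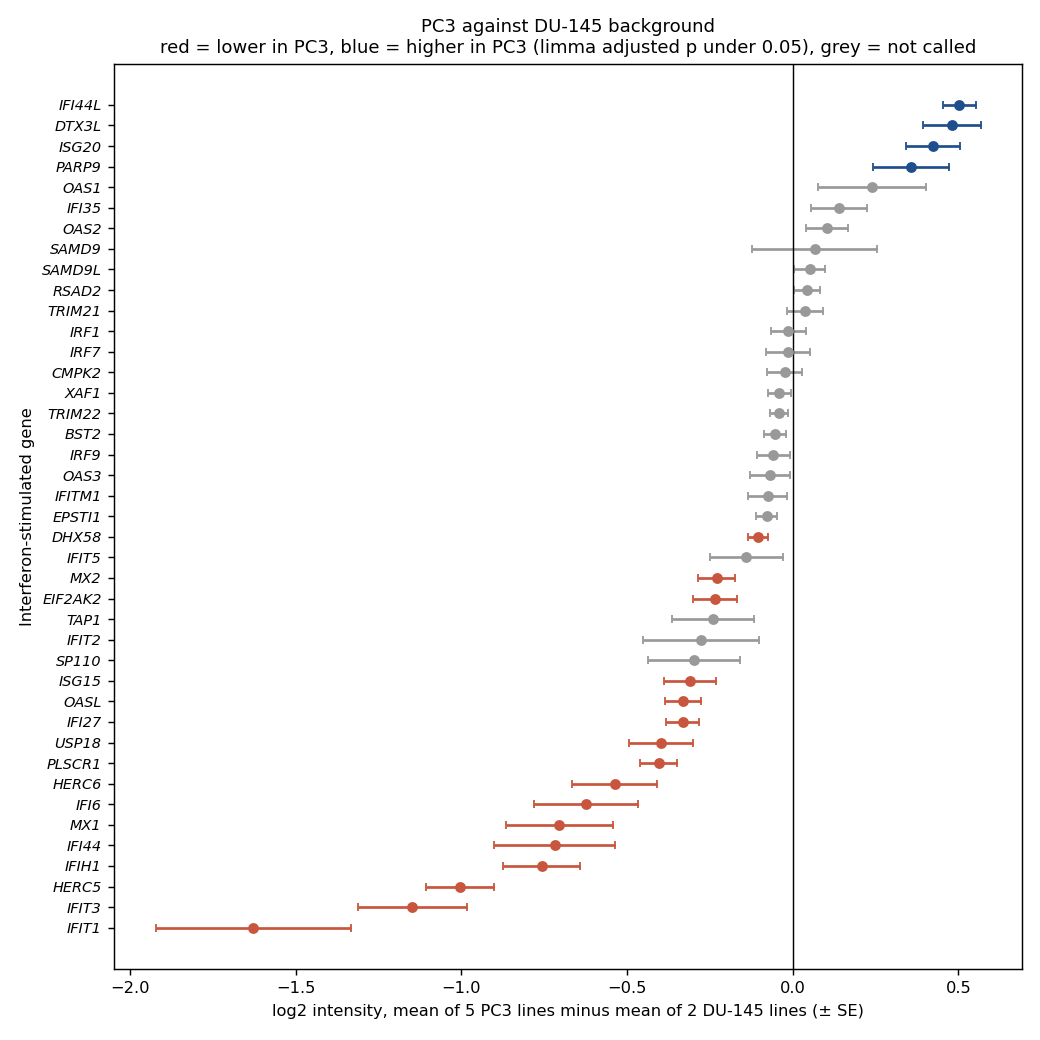
Difference in log2 intensity between the mean of the 5 PC3 lines and the mean of the 2 DU-145 lines for each of the 41 members, with bars of 1 SE; red points are called lower, blue points higher and grey points not called. Red points reach -1.63 (IFIT1), and the 4 blue points end at 0.50 (IFI44L).

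Without the second array of DU-145 (PDGFRα), 15 members were lower and 6 higher in PC3 lines, where 6382 of all 18372 genes were called in either direction. The median of the members was then -0.03. The differences were smaller but kept their calls for IFIT1 (-1.15), IFIT3 (-0.88), HERC5 (-0.83), IFIH1 (-0.60), IFI44 (-0.44) and MX1 (-0.42). Without the first array instead, 21 were lower and 3 higher, where 6815 of all genes were called in either direction. PARP9 lost its call in 7 of the fits that left out 1 array (adjusted p up to 0.148) and with quantile normalization (0.107). DHX58 lost it in 3 such fits and with quantile normalization (0.068), and EIF2AK2 without the second DU-145 array (0.0562).

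The related lists were read in the same comparison against the 38.8% of all genes called. In class I antigen presentation 5 of 9 genes were lower in PC3 lines and 0 higher, led by the immunoproteasome subunit PSMB9 (-1.95, SE 0.09), the trimming peptidases ERAP2 (-1.24) and ERAP1 (-0.51), and B2M, the light chain of class I molecules (-0.58). Of 9 receptor and JAK-STAT genes, 3 were higher, namely JAK1 (0.48), IFNGR2 (0.39) and JAK2 (0.15), and 1 was lower, the interferon receptor chain IFNAR2 (-1.15, SE 0.06). Of 15 sensors and adaptors 4 were higher, with TRIM25 (0.68) and MYD88 (0.31) ahead, and 3 were lower, namely RIGI (-0.69), the kinase TBK1 (-0.67) and TLR3 (-0.32). Of 9 brakes, SAMHD1 (0.47), IRF2 (0.37), SOCS3 (0.26) and PIAS1 (0.25) were higher and PTPN6 (-0.18) was lower. Of 30 other interferon-induced genes 5 were higher, with GBP3 (1.01) and IFITM2 (0.49) ahead, and 8 were lower, with the antiviral ZC3HAV1 (-0.85) and APOL1 (-0.51) ahead. Markers moved with this comparison too, in 3 epithelial genes lower in PC3 lines (CDH1 by -1.56) and 1 higher (KRT19 by 0.68), and in HOXB13 (2.11), PECAM1 (1.44) and TCF4 (0.79), while 0 of 6 leukocyte and 0 of 6 fibroblast markers were called. Their part in the result was not tested. Of the 11 interferon genes 0 were called by limma in this or any other comparison.

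Receptor overexpression in PC3-N was compared with its parent. SAMD9L was called higher and 0 members were called lower, where 1.52% of all genes were called higher, 0.68% lower and 2.2% in either direction. SAMD9L, a restriction factor and relative of SAMD9, read 22.5 and 22.3 in PC3-N and 32.7 and 29.2 in PC3-N(PDGFRα) (0.47, SE 0.08, adjusted p = 0.0188). These values lie near the low end of the scale, and the call was lost without either PC3-N array and without the first array of PC3-N(PDGFRα) (adjusted p up to 0.146). The median of the members was 0.06 and 26 of 41 lay above 0. By limma 7 of the 41 members and 2513 of all 18372 genes had an unadjusted p under 0.05.

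IFI44 read 49.7 and 39.9 in PC3-N and 115 and 77.9 in PC3-N(PDGFRα), a difference of 1.09 (SE 0.31) without overlap that did not pass (adjusted p = 0.117). It passed when genes of low intensity were left out (0.0294), with a trended prior (0.0374) and without an array of DU-145 (PDGFRα) (down to 0.0263). IFIH1 read 39.8 and 31.7 against 62.5 and 48.9 (0.64, adjusted p = 0.155). OAS2 differed by 0.34 (0.166). SAMD9 read 74.5 and 84.4 against 151 and 123, and its adjusted p was 0.302. Both arrays of PC3-N(PDGFRα) were above both of PC3-N in each of IFI44, IFIH1 and SAMD9. These genes were singled out from the members, and the share of members or of all genes that separated in this way was not counted. The separation is therefore a description of these genes and not a test.

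In the related lists the same comparison called higher PSMB9 (29.3 and 33.6 against 61.5 and 60.9, 0.96, adjusted p = 0.014), ERAP1 (0.68), TLR3 (0.28) and the phosphatase PTPN2 (0.68), which dephosphorylates JAK and STAT proteins. Those were 2 of 9 presentation genes, 1 of 15 sensors and adaptors and 1 of 9 brakes, while 0 of 9 receptor and JAK-STAT genes and 0 of 30 other interferon-induced genes passed. The leukocyte marker CD68 (94.6 and 103 against 159 and 154) and TCF4, listed as a plasmacytoid dendritic cell marker, were called higher too. Their part in the result was not tested. The other 5 leukocyte and 2 dendritic cell markers were not called, and PTPRC, the defining leukocyte marker, read 19.6 to 20.6 on all 14 arrays.

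Overexpression in DU-145 gave 0 called members, where 0.31% of all genes were called (0.0653% higher, 0.245% lower). An unadjusted p under 0.05 in limma was found for 6 of the 41 members and 2386 of all 18372 genes. The median of the members was 0.16, with 33 of 41 above 0. The smallest p belonged to EIF2AK2 (311 and 319 in the parent, 350 and 469 with the receptor, 0.36, adjusted p = 0.195), ISG15 (0.41, 0.219) and DHX58 (0.16, 0.234). EIF2AK2 did not overlap between the lines, and the share of all genes that separated in this way was not counted. Without the second array of DU-145 (PDGFRα) the median was -0.00 and 19 of 41 lay above 0. IFIT1 then went from 0.55 to -0.41, IFI44 from 0.12 to -0.44 and MX1 from 0.48 to -0.09. Without the first array the median was 0.28 and 40 of 41 lay above 0. The upward shift of the members in this line was therefore found with the second passage and not with the first.

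The effects of overexpression in the 2 backgrounds were compared directly. The difference between them, in PC3-N minus in DU-145, was called for 0 members, where 0.533% of all genes were called (0.419% higher, 0.114% lower). In limma 6 of the 41 members and 2273 of all 18372 genes had an unadjusted p under 0.05. The median difference of the members was -0.08. The smallest p belonged to DHX58 (-0.24, adjusted p = 0.205), XAF1 (-0.27, 0.223) and SAMD9L (0.34, 0.236). Without the second array of DU-145 (PDGFRα) the median was 0.09. Without the first it was -0.25.

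PC3-ML and PC3-N, sublines with opposite metastatic labels, differed in 0 members, where 0.348% of all genes were called (0.218% higher, 0.131% lower). An unadjusted p under 0.05 in limma was found for 1 of the 41 members and 1930 of all 18372 genes. The median of the members was -0.03. The smallest p belonged to ISG15, which read 66.5 and 60.5 in PC3-N and 50.4 and 50.7 in PC3-ML (-0.33, adjusted p = 0.399), IFI44 (-0.62, 0.547) and IRF9 (0.15, 0.598). For IFI44 the arrays did not overlap (49.7 and 39.9 against 29.2 and 28.9), and the share of all genes that separated in this way was not counted. Of the related lists 0 genes were called.

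Few members were called between a clone and PC3-ML. In Clone 1, 2 members were higher and 0 lower, where 9.01% of all genes were called higher, 4.77% lower and 13.8% in either direction. IFIH1 read 39.6 and 39.7 in PC3-ML and 81.1 and 95.3 in Clone 1, a 2.22-fold rise (1.15, SE 0.20, adjusted p = 0.00397). EIF2AK2, the kinase that halts translation on sensing double-stranded RNA, read 291 and 279 against 411 and 376 (0.46, SE 0.11, adjusted p = 0.0205). Neither overlapped. The call of EIF2AK2 was lost with quantile normalization (0.111) and without any single array of either line (up to 0.126). IFI44 read 29.2 and 28.9 against 52.0 and 56.5 (0.90, adjusted p = 0.0877), and passed when genes of low intensity were left out (0.0211) or with a trended prior (0.0292).

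In Clone 3, 1 member was higher and 0 lower, where 5.2% of all genes were called higher, 2.9% lower and 8.1% in either direction. It was IFI44L, which read 25.7 and 27.2 in PC3-ML and 64.2 and 58.0 in Clone 3 (1.21, SE 0.09, 2.31-fold, adjusted p = 8.97e-05). The highest array of any other line was 30.1. IRF9 (-0.22, 0.154) and IFIH1 (0.51, 0.17) followed by p. Clone 1 was compared with Clone 3 directly, since the calls against PC3-ML share its arrays. IFI44L was lower in Clone 1 (24.7 and 23.9, -1.33, SE 0.09, adjusted p = 2.84e-05) and no other member was called, where 10.5% of all genes were (4.63% lower, 5.85% higher). ISG15 (0.43, 0.0712), EIF2AK2 (0.36, 0.0718) and IFIH1 (0.64, 0.0738) lay just outside the threshold, and 5 members passed without either array of DU-145 (PDGFRα).

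Genes of the related lists were compared between the clones as well, where 10.5% of all genes were called. Of 9 receptor and JAK-STAT genes, 3 were lower and 2 higher in Clone 1 than in Clone 3. IFNAR1, a chain of the type I interferon receptor, read 539 and 587 in Clone 3 and between 276 and 373 on the 12 other arrays. IFNAR2, its partner chain, read 103 and 90.3 in Clone 3 and 54.6 and 49.1 in Clone 1. IFNGR2, a chain of the interferon gamma receptor, read 203 and 163 against 72.8 and 81.8. Against PC3-ML the rises in Clone 3 were 0.80 for IFNAR1, 0.56 for IFNAR2 and 0.80 for IFNGR2, and 3 of 9 genes of the list passed there. Clone 1 instead had the higher IFNGR1 (102 and 94.5 against 68.7 and 72.6) and JAK2 (0.31).

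The DNA sensors CGAS and IFI16 were higher in Clone 1. CGAS read 300 and 253 in Clone 1, 163 and 142 in PC3-ML and 129 and 120 in Clone 3, a difference between the clones of 1.15 (SE 0.14, adjusted p = 0.00089). IFI16 read, in the same order, 50.7 and 42.4, 27.3 and 30.6, and 20.3 and 22.4 (1.12, SE 0.16, adjusted p = 0.0018). In all, 3 of 15 sensors and adaptors were higher and 2 lower in Clone 1 than in Clone 3, the others being MYD88 (0.54), IKBKE (-0.41) and TRIM25 (-0.35). Of the presentation genes B2M alone passed (-0.36), of 30 other interferon-induced genes IFI16 and LGALS3BP (0.68) were higher, and 0 of 9 brakes passed. Against PC3-ML, Clone 1 was higher in IFNGR1 (0.77), JAK1 (0.45), CGAS (0.85), IFI16 (0.68), MYD88 (0.50), LGALS3BP (0.71) and IFITM2 (0.34) and lower in TAP2 (-0.37). Clone 3 was higher in TRIM25 (0.46), IKBKE (0.35) and SAMHD1 (0.63). Epithelial markers moved with Clone 1 as well, with 3 of 5 higher than in PC3-ML (EPCAM by 1.81), and so did 1 of 3 endothelial markers (PECAM1 by 1.03). Their part in the result was not tested.

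**Figure D5:**
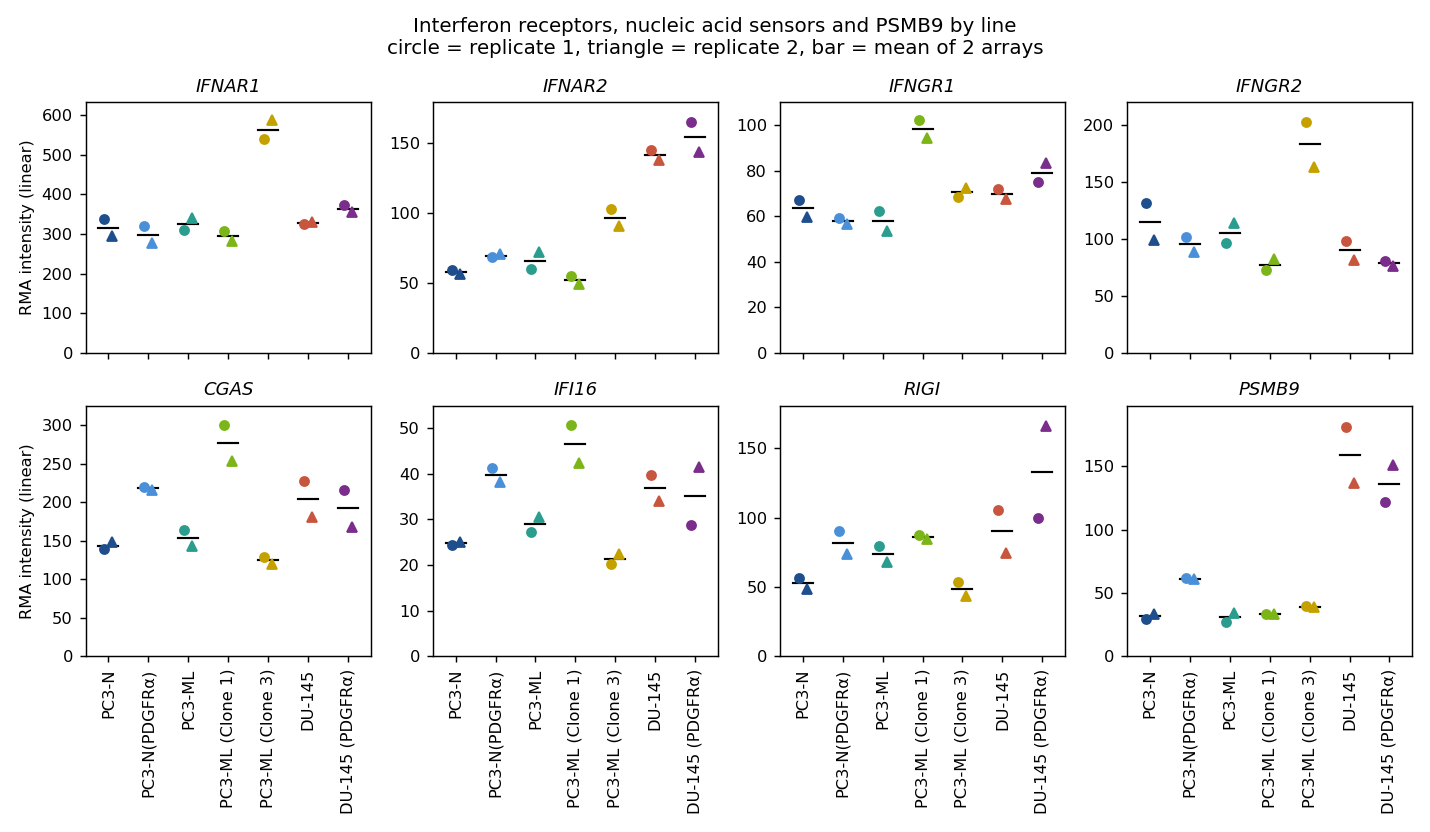
Intensity (linear axis from 0) of 4 interferon receptor genes, the sensors CGAS, IFI16 and RIGI and the immunoproteasome gene PSMB9 by line; circles are replicate 1, triangles replicate 2 and bars the mean of the 2 arrays. IFNAR1 and IFNGR2 are highest in Clone 3, CGAS, IFI16 and IFNGR1 in Clone 1, and PSMB9 in both DU-145 lines (122 to 181).

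The series title asks how bone-metastatic and other lines differ, and the line is the replicate for that question. The 4 bone-metastatic lines differed from the other 3 in 0 members by limma on the 7 line means, where 0% of all genes passed, while 7 members and 2250 genes in all had an unadjusted p under 0.05. The median was -0.07 and 12 of 41 members lay above 0. The smallest p belonged to IFI27 (-0.25, SE 0.08), PLSCR1 (-0.30, SE 0.10) and ISG20 (0.33, SE 0.12), each with an adjusted p of 0.405. IFIT1 differed by -1.19 with an SE of 0.47. Without the second array of DU-145 (PDGFRα) the median of the members was -0.03, with 17 of 41 above 0. Without the first it was -0.10, with 8 of 41 above 0. All 4 bone-metastatic lines are of PC3 background and 2 of the 3 others are DU-145, so the label and the background cannot be told apart in these means. PC3-N, the sole PC3 line without the label, read 55.0 and 43.9 for IFIT1, between PC3-N(PDGFRα) and PC3-ML. Of the 6 related lists 0 genes passed.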

How the data were processed

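The deposited table held intensities after RMA by the authors, per the submitters' processing notes; the RMA version is not given in the sources used here. RMA subtracts background and equalises distributions between arrays, which compresses low values and would hide a shift of all genes. Of 28829 probe sets, 19291 carried 1 gene symbol, 1735 several and 7803 none. Where a gene had more than 1 probe set (682 genes), the brightest on average was kept, which gave 18372 genes. Values were converted to log2 with no pseudocount. In R 4.3.3, limma 3.58.1 fitted 1 model over the 14 arrays, with 7 line means and 7 residual degrees of freedom, and its two-sided tests used Benjamini-Hochberg adjustment over all genes and a threshold of 0.05. Metastatic labels were compared on line means. The number of arrays limits the precision.

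The members, related lists and markers were chosen with earlier results of these data known. Up to 12 called members per direction were named in each comparison, the 3 of smallest p where fewer than 3 were called, the 12 widest and 5 narrowest members, low members, and up to 4 called genes of each related list; some further members and marker genes were named after their values were seen. Alternatives were quantile normalization, a filter on low intensity, the mean of probe sets, a trended prior, a replicate block and leaving out each array.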

Additional observations from a re-analysis of the deposited data

Results flagged for a closer look

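The line means (geometric) of the 28 members with higher readings were examined within 2 groups, the 5 PC3 lines and the 4 bone-metastatic lines, 56 sets in all, for a line far from the others. The 4 bone-metastatic lines are also among the 5 PC3 lines, so the sets are not independent. Chance alone is expected to mark about 5% of such sets. In 4 of the 56 sets, close to that share, 1 line stood far from the rest. IFI44L in Clone 3 had a mean of 61.01, where the other PC3 lines lay between 24.3 and 28.64. IFI44L was among the 28 only through this mean, its other line means being under 36.3, so its flag is not independent of that choice. SAMD9 in PC3-N(PDGFRα) had a mean of 136.2, where the other PC3 lines lay between 68.97 and 81.58. IFI6 in PC3-N(PDGFRα) had a mean of 44.89, with the others between 34.1 and 36.6. Among the bone-metastatic lines, IFIT2 in PC3-N(PDGFRα) had a mean of 70.23, with the others between 51.26 and 53.32, although its arrays there were 82.8 and 59.6. Both arrays of PC3-N(PDGFRα) exceeded all other PC3 arrays in SAMD9 and IFI6. Of these genes IFI44L alone passed a test between 2 lines, and the cause of the others was not tested.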

How the results depend on the processing

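No called member changed direction under any alternative tried. Without the second array of DU-145 (PDGFRα), the uncalled differences of its line from DU-145 turned from 0.55 to -0.41 for IFIT1 (1.52 without the first array), from 0.12 to -0.44 for IFI44 (0.68) and from 0.48 to -0.091 for MX1 (1.049). The median of the members turned from 0.16 to -0.00 there and from -0.08 to 0.09 for the difference of the effects in the 2 backgrounds. Leaving out 1 array at a time gave 0 to 3 called members in PC3-N(PDGFRα) against PC3-N (1 with all arrays), 0 to 4 in DU-145 (PDGFRα) against DU-145 (0), 0 to 1 for the difference of these effects (0), 1 to 3 in Clone 1 against PC3-ML (2), 1 in every fit of Clone 3 against PC3-ML, 1 to 5 between the clones (1), 18 to 24 between PC3 and DU-145 lines (20) and 13 to 24 among all lines (15). It gave 0 in every fit of PC3-ML against PC3-N and of the metastatic label. A trended prior called 2 members in PC3-N(PDGFRα) against PC3-N and 2 between the clones, leaving out genes of low intensity 3 between the clones, and quantile normalization 1 in Clone 1 against PC3-ML. Passages share replicate numbers across lines, but the numbers did not pair them in the same direction. The correlation of passage differences over 21 pairs of lines ran from -0.20 to 0.24 and passed 0.1 in 5. PC3-ML and Clone 1 correlated with each other (0.22). Each of them correlated negatively with PC3-N, PC3-N(PDGFRα), Clone 3 and DU-145 (-0.20 to -0.07). A block by replicate number cannot take up differences of opposite sign. With the replicate number as a block, 14 members differed among all lines (15 without it, OAS2 being lost), and the counts of the 8 comparisons between lines were the same. No paired analysis was possible for the metastatic label because it was tested on line means. Low intensity limits 13 members.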

Other observations

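The 3 receptor genes that rose in Clone 3 against PC3-ML are neighbours. In the RefSeq gene order IFNAR2, IL10RB, IFNAR1 and IFNGR2 follow each other on chromosome 21 without another measured gene between them. IL10RB, the shared chain of the interferon lambda receptor, read 32.8 and 34.5 in PC3-ML and 40.6 and 40.4 in Clone 3, a difference of 0.27 that did not pass (adjusted p = 0.0583). Of the 20 measured genes beside them, 10 on each side, 0 were called, with a median difference of 0.02. Of 236 measured genes on chromosome 21, 16 were higher in Clone 3, or 6.78%, against 5.2% of all genes. MX1, a member on the same chromosome, read 27.3 and 28.0 in Clone 3 against 30.4 and 29.1 in PC3-ML.

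Outside the list, the genes whose intensity followed the mean of the members most closely over the 14 arrays, among those with line means spanning at least 1 log2 unit, were SNORD36B (r = 0.85), PLAAT4 and SMIM14 (0.80 each), CENPH and DRC8 (0.76 each), CYBRD1 and GPSM2 (0.75 each) and BNC1 (0.74). PLAAT4 is a tumour suppressor known to respond to retinoids and to interferon. The arrays of related lines share their origin, and these values are a description.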
